A study of Homo sapiens with 22 samples.

Results

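The genes described here encode the subunits of the mitochondrial respiratory chain and of the ATP synthase that are carried by nuclear chromosomes. They were taken by symbol, as every protein-coding gene whose name begins with the stem of a complex I (NDUFA, NDUFB, NDUFC, NDUFS or NDUFV), complex II (SDHA to SDHD), complex III (UQCR), complex IV (COX4 to COX8) or ATP synthase (ATP5) subunit. The rule found 93 genes in the human annotation, of which 89 were among the 36859 genes of the table, and 80 of these 89 had enough counts to be tested. The rule uses names and no measured values. The stems also took 4 SDHAF genes (assembly factors of complex II), ATP5IF1 (an inhibitor protein of the ATP synthase) and 2 read-through genes, ATP5MF-PTCD1 and NDUFC2-KCTD14.

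Complexes I and II pass electrons from NADH and succinate to coenzyme Q, complex III passes them to cytochrome c, and complex IV passes them to oxygen. The ATP synthase uses the proton gradient that complexes I, III and IV build up. Most subunits are nuclear genes, while a few core subunits are transcribed from the mitochondrial genome, so each complex except complex II draws on both genomes, and the proximal tubule is among the tissues that rely most on this pathway.

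RNA-seq was made from RPTEC, a human renal proximal tubule epithelial line immortalised with hTERT, which all 22 libraries carry. Each of the 11 groups had 2 libraries, and the labels do not say whether the duplicates were separate cultures, so the tests measure the spread between libraries, which may be technical. Kept in 2% serum were WT cells, WT cells given 10 ng per mL TGF-β for 72 h, 2 single-cell CRISPR clones with SETD2 targeted in exon 3 (KO1 and KO2), and a group labelled KO2 rescue. SETD2 is the H3K36 methyltransferase that is often lost in clear cell renal carcinoma. Kept in 10% serum were Rescue1 and Rescue2, single clones of KO cells given full-length SETD2 by lentivirus and blasticidin selection, and WT cells that carried a vector for eGFP, SOX2, OCT2 or PRRX1 and were selected in bulk with puromycin. The sources used here do not name the KO clone that the rescue clones came from, and KO2 is taken as their comparison, with KO1 as an alternative.

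SETD2 mRNA was 1852 and 2061 normalized counts in WT, 1046 to 1130 in both KO clones and 9764 to 10445 in Rescue1 and Rescue2. The libraries labelled KO2 rescue held 820 and 834, below both KO2 libraries, so they are called the labelled KO2 rescue throughout. A normalized count is a read count scaled for the depth of its library, recovered here from the deposited log2 values, and the totals ran from 11674491 to 16758645 per library. The members together took 0.386 to 0.624% of these counts. Fibroblast markers summed to 831 and 12440 in the WT duplicates, 46390 to 47810 after TGF-β, 223400 to 236500 in KO1, 98950 to 102600 in KO2 and 818 to 1524 in Rescue1 and Rescue2. The highest of these 8 markers had a mean of 33820 over all libraries and the median marker 29.5, so the sums rest largely on few genes. At an adjusted p under 0.05 by limma, 4 of the 8 were higher and 1 lower in KO1 than in WT. Of all genes 19.0% were higher and 20.8% lower. The epithelial and proximal tubule list summed to 39720 to 43530 in WT, 18470 to 19960 in KO1, 26600 to 27570 in KO2 and 27090 to 31950 in the transduced WT cells, and its proximal tubule markers LRP2 and HNF4A were at or near 0 in these libraries. These sums moved with several results below, and their part in them was not tested.

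Several subunits that every respiring cell uses had few or no counts. NDUFA1, NDUFA8, COX8A and UQCRFS1 were not analysed here because the table has no row for them. Each is annotated with a single transcript, and of 2933 protein-coding genes with a single transcript 35.4% were not in the table, against 1.7% of the others. ATP5F1B, the catalytic beta subunit of the ATP synthase, had a mean of 125 normalized counts while its partner ATP5F1A, the alpha subunit, had 8735. NDUFB7, another complex I subunit, had at most 3.8. For this reason levels are compared between groups for each gene and never between genes.

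Untested for low counts were 9 members. COX4I2, COX6A2, COX7A1 and COX7B2, known as tissue-restricted isoforms of complex IV subunits, were listed at 0 in all 22 libraries. As subunits used by every cell were also at or near 0, a listed 0 is not read as absence of the mRNA. COX8C, another restricted isoform, ATP5MGL, NDUFB7 and SDHAF4 were also under the minimum. COX6B2, a testis isoform, had 193.9 normalized counts in 1 PRRX1 library and 0 to 9.2 in the others. The tested members were 33 subunits of complex I, 4 of complex II, 8 of complex III, 12 of complex IV with NDUFA4 and NDUFA4L2 counted there, 17 of the ATP synthase, ATP5IF1, 3 SDHAF genes and the 2 read-through genes. UQCRHL is a near copy of UQCRH, SDHA has pseudogene copies, and each read-through gene overlaps a member, so the split of counts among them is uncertain.

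Promoters of nuclear respiratory genes are known for sites of nuclear respiratory factor 1 (NRF1), of the ETS factor GABP, and of YY1. RefSeq windows on GRCh38.p14, from 250 bases before to 50 bases after the start, were at hand for 70 of the 89 members and for 27305 genes in all. Searched on both strands, the NRF1 core GCGCANGCG lay in 22 of the 70 windows (31.4%), against 8.05% of all windows and 12.7% of the 12520 windows of tested protein-coding genes. The ETS core CCGGAAG was in 20 (28.6%), against 10.7% of all windows and 16.4% of the tested ones, and the YY1 core AAGATGGCG in 8 (11.4%), against 1.85% and 3.23%. The CCAAT box was in 24 (34.3%), close to the 35.7% and 36.2% of the other sets. A match is a run of letters and not a measured binding site. Members described below were not all among these 22, since COX7C and COX5B, for example, had a window without the NRF1 core. The following 30-base stretches show the core, in capitals, for 5 of the 22, all named below. After them comes a longer stretch upstream of SDHA that holds the core 3 times.
ATP5F1C at chr10:7788146-7788175, plus strand, with overlapping matches on both strands: ggagcttcgGCGCATGCGCgctgaggcctg
NDUFA9 at chr12:4649025-4649054, plus strand: tcttggttagCGCTTGCGCagacaggcgag
NDUFS7 at chr19:1383823-1383852, plus strand: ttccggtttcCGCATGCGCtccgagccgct
NDUFS6 at chr5:1801351-1801380, plus strand: cagaagccgtGCGCATGCGttagcgctaag
UQCR10 at chr22:29767351-29767380, plus strand: gtcggccccaGCGCAGGCGcggtggcgcga
SDHA at chr5:218154-218297, plus strand: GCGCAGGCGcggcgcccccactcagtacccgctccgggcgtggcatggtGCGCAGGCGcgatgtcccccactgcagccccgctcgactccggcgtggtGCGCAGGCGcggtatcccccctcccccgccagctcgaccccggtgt

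The range of group means on the log2 scale was narrowest for SDHB (0.26), ATP5F1A (0.30) and UQCRC2 (0.31), a core subunit of complex III, and widest for NDUFC2-KCTD14 (4.01), NDUFA6 (3.96) and ATP5F1C (3.73). NDUFA6, a complex I subunit, owed its range to 1 Rescue1 library listed at 0 beside 78.6 in its duplicate, and NDUFC2-KCTD14 had at most 92.9 normalized counts. ATP5F1C had a mean of 839, and its values are given below. The ubiquitous isoforms COX6A1 and COX6B1, the hypoxia-linked isoform NDUFA4L2, the complex III core subunit UQCRC1 and ATP5F1B were called in none of the comparisons of KO clones, TGF-β, rescue clones and eGFP cells described below. Their means over all libraries were 46.3, 9.68, 10.2, 268 and 125 normalized counts in that order.

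The first comparison asks what TGF-β, which drives an epithelial to mesenchymal transition in these cells, did to the respiratory genes of WT cells. Of the 80 members, 9 were lower and 1 was higher at an adjusted p under 0.05, against 9.22% lower and 8.50% higher of all 14585 genes tested, so the share of lower members was close to the background. All adjusted p-values come from limma with Benjamini-Hochberg adjustment over these 14585 genes. None passed a 2-fold change, where the background was 7.84%. The median change of the members was -0.19 on the log2 scale and that of all genes 0.00. With libraries scaled to the same total, 32 members were lower and 0 higher, against 16.0% lower and 4.9% higher of all genes. The median of all genes was then -0.20. The members' median less that of all genes was -0.19 in the main test, -0.22 at the same total and -0.10 with a trend on transcript length and GC removed, where 5 members were lower and 1 higher.

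Among the 9 lower members were 4 ATP synthase subunits (ATP5MC2, ATP5PB, ATP5F1D and ATP5F1A), 3 of complex IV (COX7C, COX5A and COX6C), 1 of complex I (NDUFA10) and 1 of complex II (SDHC). ATP5MC2, a source of the c ring that turns in the membrane, had 2934 and 2799 normalized counts in WT and 1932 and 2121 after TGF-β (log2 change -0.50, SE 0.083, adjusted p = 0.000568). COX7C, a small complex IV subunit, had 326 and 298 in WT and 200 and 218 after TGF-β (-0.58, SE 0.166, adjusted p = 0.0258). Both treated libraries lay below both WT libraries for each of these genes. The ATP5MC2 call held without any 1 library, whereas the COX7C call was lost without any 1 of the 4, with changes of -0.64 to -0.51. The single higher member was SDHAF2, which helps to attach the flavin cofactor to SDHA, with 301 and 325 in WT and 435 and 418 after TGF-β (0.45, adjusted p = 0.0302). Its call too was lost without any 1 of the 4 libraries, with changes of 0.39 to 0.50. No member of complex III was called.

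**Figure D1:**
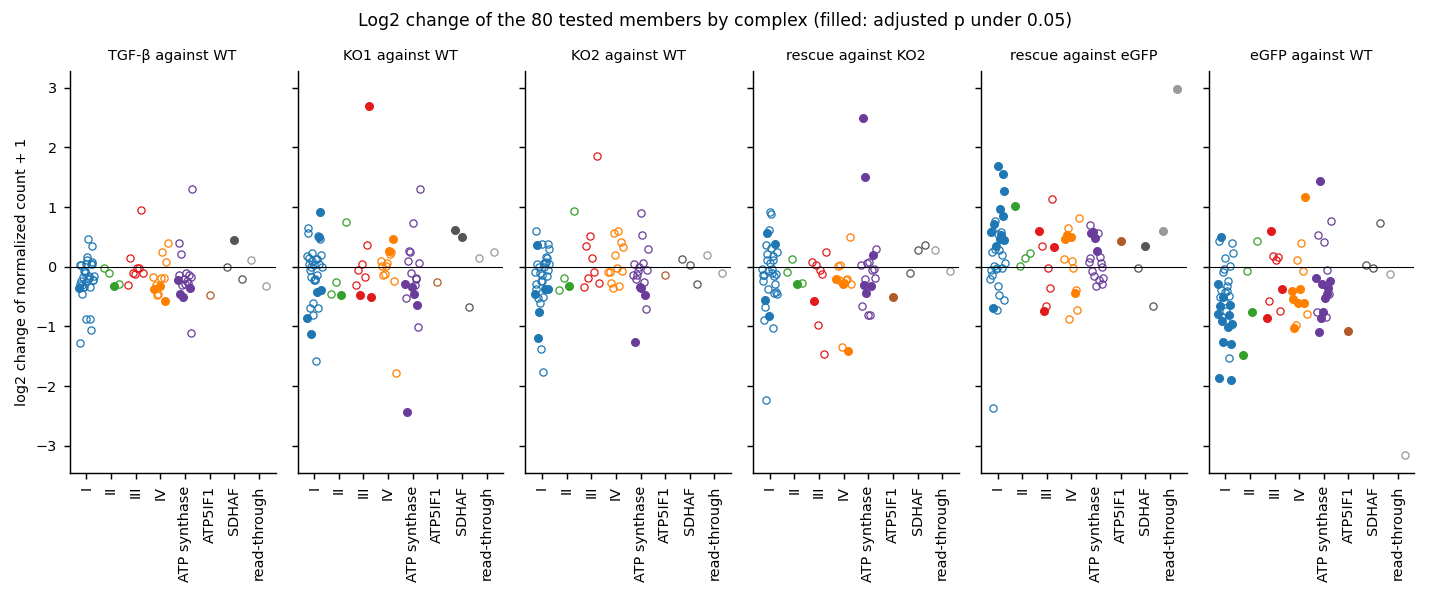
Log2 change of each of the 80 tested members (y axis) by complex (x axis), with a panel for each of 6 comparisons; filled points have an adjusted p under 0.05. The members lie near 0 after TGF-β and in the KO clones apart from a few such as ATP5F1C at -2.44 in KO1, while most points lie below 0 for eGFP against WT.

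The KO clones were then set against WT in the same serum. In KO1, 7 members were higher and 12 lower, against 19.0% higher and 20.8% lower of all genes, and 3 passed a 2-fold change, against 25.0%. In KO2, 1 was higher and 10 lower, against 15.3% and 13.7%, and 2 passed a 2-fold change, against 16.3%. The members' medians were -0.03 and -0.08, with 0.00 for all genes in each. With libraries scaled to the same total the calls became 1 higher and 35 lower in KO1, against 11.5% and 32.4% of all genes. In KO2 they became 0 and 26, against 11.1% and 20.4%. The medians of all genes moved to -0.39 in KO1 and -0.20 in KO2. Lower were 4 of 33 subunits of complex I and 5 of 17 of the ATP synthase in KO1, and 5 and 4 of these in KO2.

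ATP5F1C (ENSG00000165629, chr10:7788147-7807815) encodes the gamma subunit, the shaft that turns inside the catalytic head of the ATP synthase. It had 790 and 600 normalized counts in WT, 944 and 860 after TGF-β, 241 and 65.6 in KO1, 249 and 332 in KO2, and 370 and 466 in the labelled KO2 rescue. Rescue1 held 1724 and 1422, Rescue2 1756 and 1613, and WT with eGFP 1009 and 990. All 4 KO libraries lay below every other library of the series for this gene, and the 4 libraries of Rescue1 and Rescue2 lay above every other. KO1 differed from WT by -2.44 on the log2 scale (SE 0.403, adjusted p = 0.000186) and KO2 by -1.26 (SE 0.403, adjusted p = 0.0289). The KO1 change was -3.37 without the first KO1 library and -1.51 without the second, and the KO2 call was lost on leaving out any 1 of the WT or KO2 libraries, with changes of -1.46 to -1.05.

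NDUFA9 (ENSG00000139180, chr12:4649095-4694317), a complex I subunit that binds NADPH, had 822 and 824 normalized counts in WT and 720 and 736 after TGF-β. It had 335 and 423 in KO1, 506 and 469 in KO2, and 591 and 576 in the labelled KO2 rescue. In Rescue1 it had 726 and 735, in Rescue2 692 and 743, and with eGFP 485 and 397. Both WT libraries were the highest of all, and the means were lowest in KO1 and the eGFP cells, whose duplicates also lay furthest apart. Relative to WT it fell by 1.13 in KO1 on the log2 scale (SE 0.119, adjusted p = 2.32e-06) and by 0.76 in KO2 (SE 0.119, adjusted p = 0.000172), and both calls held without any 1 library.

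NDUFA10, ATP5PB and SDHC fell in both clones and after TGF-β. The first (ENSG00000130414, chr2:239892450-240025743, minus strand), an accessory subunit of complex I, had 1598 and 1805 normalized counts in WT, 975 and 894 in KO1 and 1285 and 1191 in KO2, for log2 changes of -0.86 and -0.46. ATP5PB (ENSG00000116459, chr1:111448864-111462773), which forms the stator stalk that holds the catalytic head still, had 3081 and 2919 in WT, 1953 and 1877 in KO1 and 2224 and 2073 in KO2 (-0.65 and -0.48). SDHC, a membrane anchor of complex II, had 3309 and 3174 in WT, 2297 and 2343 in KO1 and 2551 and 2599 in KO2 (-0.48 and -0.33). With TGF-β their changes were -0.36, -0.36 and -0.32. For all 3 genes the KO and TGF-β libraries lay below both WT libraries, and these comparisons share the WT libraries.

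NDUFV1, the core subunit of complex I that binds NADH, fell by 0.40 on the log2 scale in KO1 and by 0.37 in KO2. ATP5MF and ATP5MC3, membrane subunits of the ATP synthase, fell by 0.45 and 0.34 in KO1 and by 0.35 and 0.33 in KO2. NDUFA7, a complex I subunit, was called lower in KO2, with 508 and 177 normalized counts against 693 and 687 in WT (-1.20, adjusted p = 0.00901), but the change was -0.44 and no longer called without the second KO2 library, and -1.95 without the first. Called higher in KO1 were COX7C (398 and 461 against 326 and 298 in WT, log2 change 0.46, adjusted p = 0.0398), COX7A2 (0.26), NDUFS5 (0.49), NDUFS8 (0.92), SDHAF1 (0.62), SDHAF2 (0.50) and UQCRHL, whose counts were 12.1 and 15.6 against 0.90 and 1.75. The call of SDHAF1 was lost without any 1 library (changes of 0.54 to 0.70), that of NDUFS8 without the first WT (0.71) or either KO1 library (0.96 and 0.88), and that of UQCRHL without the first WT or second KO1 library (2.42 and 2.52). In KO2 the higher member was NDUFA5 (0.36), whose call was lost without the second WT library (0.21) or either KO2 library (0.41 and 0.32). Between the clones, 5 members were higher and 4 lower in KO1 than in KO2, against 6.44% and 9.56% of all genes, and 1 passed a 2-fold change, against 6.97%. With libraries scaled to the same total these were 1 and 14, against 3.92% and 15.25% of all genes. With the trend on transcript length and GC removed they were 8 and 2.

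**Figure D2:**
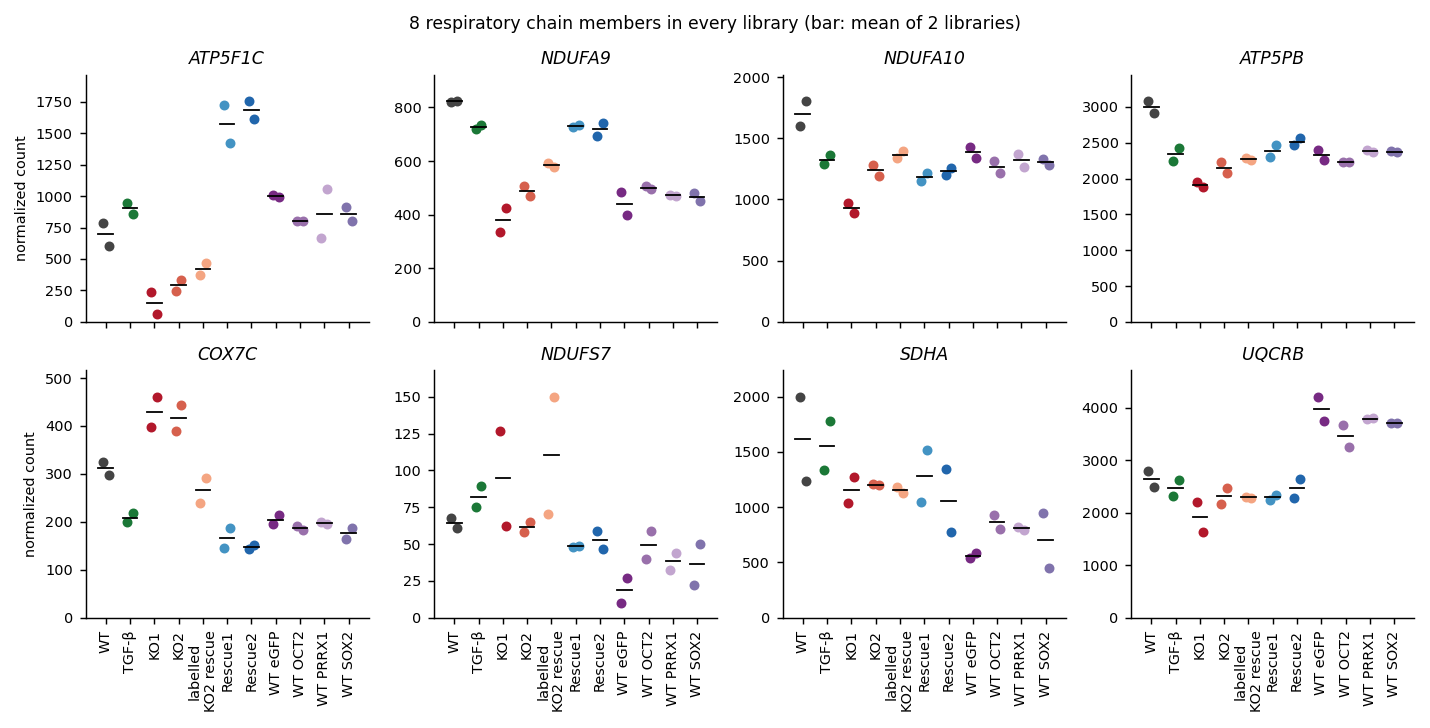
Normalized counts of 8 members (linear y axis) in each of the 11 groups (x axis). Each dot is a library and each bar the mean of 2. ATP5F1C is lowest in the KO clones and highest in Rescue1 and Rescue2, NDUFA9 is highest in WT, and SDHA and NDUFS7 are low in eGFP cells.

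The clones were also set against TGF-β-treated WT cells, to place loss of SETD2 beside the growth factor. The mean of KO1 and KO2 was higher for 13 members and lower for 7, against 18.1% and 18.2% of all genes, and 5 passed a 2-fold change, against 20.2%. The members' median was 0.08 and that of all genes -0.02. With libraries scaled to the same total the split was 8 higher and 10 lower, against 15.7% and 20.7% of all genes. COX7C had 398, 461, 389 and 444 normalized counts in the KO libraries and 200 and 218 after TGF-β (log2 change 1.01, SE 0.144, adjusted p = 5.04e-05). COX6C and ATP5MC2 were also higher (0.46 and 0.45), and all 3 genes were lower after TGF-β than in WT, in a comparison that shares the TGF-β libraries. ATP5F1C (-2.24) and NDUFA9 (-0.76) were lower in the KO clones. NDUFA12, NDUFS4 and NDUFB9, complex I subunits, passed a 2-fold change with at most 100.3 normalized counts in any library, and each depended on single libraries. NDUFA12 was 3.74-fold higher, while its log2 change was 0.78 and not called without the second TGF-β library. For NDUFS4 the log2 change was 1.41, and 0.56 without the first TGF-β library, with the call also lost without the second KO1 library or either KO2 library. For NDUFB9 it was -2.13, and the call was lost without either TGF-β library, the second KO1 library or the second KO2 library, with changes of -2.31 to -1.58.

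Rescue1 and Rescue2 together were compared with KO2, with serum differing as well, so SETD2, serum and vector cannot be told apart in this contrast. Here 5 members were higher and 12 lower, against 16.2% and 18.3% of all genes, with 3 past a 2-fold change, against 17.5%. With KO1 or the mean of both clones in place of KO2, alternatives chosen after the data were seen, 28 and 30 members were called in place of 17. The balance against KO2 turned with the scaling. It was 23 higher and 1 lower with libraries scaled to the same total, against 26.5% and 11.7% of all genes. The median of all genes was then 0.26. With the length and GC trend removed the balance was 11 and 3. The members' median less that of all genes was -0.08 in the main test, -0.07 at the same total and 0.03 with the trend removed. The rescue clones are therefore described gene by gene.

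ATP5F1C was 5.63-fold higher in the rescue clones than in KO2 (log2 change 2.49, SE 0.349, adjusted p = 5.46e-05). ATP5F1E, the epsilon subunit next to gamma in the shaft, had 111 and 129 normalized counts in KO2, 379 and 375 in Rescue1 and 336 and 289 in Rescue2 (1.51, adjusted p = 0.00021). NDUFA9 (0.57), NDUFS6 (0.38), a complex I subunit, and ATP5PB (0.19, adjusted p = 0.0161) were the other higher members, and for each of these 5 genes all 4 rescue libraries lay above both KO2 libraries. COX7C went the opposite way, at 389 and 444 in KO2, 146 and 186 in Rescue1, and 143 and 152 in Rescue2 (-1.41, SE 0.144, adjusted p = 2.44e-06). Also lower were COX7A2 (-0.27), COX4I1 (-0.20), COX6C (-0.29), ATP5MC2 (-0.44), ATP5MJ (-0.33), ATP5F1D (-0.31), ATP5IF1 (-0.50), NDUFA5 (-0.56), NDUFB4 (-0.83), UQCR11 (-0.58) and SDHC (-0.29). The NDUFB4 call was lost without either KO2 library, the first Rescue1 library or the second Rescue2 library (-0.85 to -0.7). That of UQCR11 was lost without either KO2 library or the first Rescue1 library (-0.59 to -0.51).

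KO1 against WT and rescue against KO2 share no library. Of the 12 members lower in KO1, 3 were higher in the rescue clones (25.0% of the former and 60% of the latter), namely ATP5F1C, ATP5PB and NDUFA9. Over all genes tested the same shares were 44.2% and 56.7%. Of the 7 members higher in KO1, 2 were lower in the rescue clones (28.6% and 16.7%), COX7C and COX7A2, where the shares over all genes were 50.3% and 52.3%. The members' shares were thus below or close to those of all genes. SDHC fell in both comparisons. The comparison of eGFP cells with WT, in which serum also differed, shares no library with rescue against KO2 either. Of its 33 lower members, 8 were also lower in the rescue clones (24.2% and 66.7%), among them COX7C, COX7A2 and SDHC. Over all genes these shares were 25.5% and 18.9%. Of all tested members 41.25% were lower in the eGFP cells, against 13.5% of all genes, so the 66.7% is to be read beside that share. With libraries scaled to the same total, 1 member was lower in the rescue clones than in KO2. The part of serum and transduction in these falls was not tested. The 237 bases upstream of COX7C that hold no annotated exon, at chr5:86617691-86617927 on the plus strand, are shown for this largest fall in the rescue clones. The stretch held none of the 4 motifs. The NRF1 core lay in the windows of members that went either way in the rescue clones. NDUFB4, UQCR11, ATP5MC2 and ATP5MJ were lower and hold it, while ATP5F1C, NDUFA9 and NDUFS6 were higher and hold it too. A link of the core to these changes was not tested.
COX7C upstream: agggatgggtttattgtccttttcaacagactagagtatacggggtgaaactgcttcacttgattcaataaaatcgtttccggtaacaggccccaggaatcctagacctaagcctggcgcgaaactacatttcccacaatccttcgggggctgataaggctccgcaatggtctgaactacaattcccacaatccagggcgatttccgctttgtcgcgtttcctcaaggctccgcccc

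In the labelled KO2 rescue, in the serum of KO2, 1 member was higher and 1 lower than in KO2, against 4.96% and 5.38% of all genes. They were NDUFS6 (842 and 782 normalized counts against 629 and 611, log2 change 0.39, adjusted p = 0.0356) and COX7C (239 and 292 against 389 and 444, -0.65, adjusted p = 0.0205). The NDUFS6 call was lost without any 1 of the 4 libraries, that of COX7C without either KO2 library or the first of the labelled KO2 rescue (changes of -0.75 to -0.51), and both were lost when only the groups compared were fitted. SETD2 mRNA was not raised in these libraries. The split was 2 higher and 1 lower at the same total, against 6.18% and 4.47% of all genes. It was 0 and 2 with the length and GC trend removed.

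The eGFP-transduced WT cells in 10% serum were compared with WT cells in 2% serum, which differ in serum and in transduction together. Lower were 33 members and higher 4, against 13.5% and 13.1% of all genes, and 11 passed a 2-fold change, against 12.7%. The members' median was -0.44 while that of all genes was 0.00. With libraries scaled to the same total 35 were lower and 4 higher, against 14.4% and 12.4% of all genes. The members' median was then -0.47. With the length and GC trend removed 20 were lower and 3 higher, with a median of -0.28. Lower were 13 of 33 subunits of complex I (median -0.51), 6 of 12 of complex IV (-0.47), 9 of 17 of the ATP synthase (-0.36), 2 of 4 of complex II, 2 of 8 of complex III, and ATP5IF1. Leaving out the first eGFP library left 24 members called lower or higher in place of 37, and 9 were called when only the groups compared were fitted. The epithelial and proximal tubule list summed to 27090 to 28620 in the eGFP libraries, below both WT libraries, and its part in the result was not tested.

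Complex II, which holds no mitochondrially encoded subunit, had 4 tested members. SDHA (ENSG00000073578, chr5:218303-257082), the flavoprotein that oxidises succinate, had 1998 and 1233 normalized counts in WT and 541 and 581 with eGFP (log2 change -1.48, SE 0.323, adjusted p = 0.00311). It had 801 and 927 with OCT2, 795 and 823 with PRRX1 and 450 and 948 with SOX2, and 773 to 1513 in Rescue1 and Rescue2. SDHC had 3309 and 3174 in WT and 1920 and 1901 with eGFP (-0.76, SE 0.068, adjusted p = 1.21e-06). SDHB, the iron-sulphur subunit, had 1458 and 1281 in WT and 1320 and 1278 with eGFP (-0.07, adjusted p = 0.714) and the narrowest range of group means of any tested member, 0.26 on the log2 scale. SDHD, which had few counts, had means of 9.26 in WT and 12.1 with eGFP and was not called. The genes of complex II thus moved by different amounts within the same libraries.

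NDUFS7 and NDUFS8, core iron-sulphur subunits of complex I, were low in the eGFP cells. NDUFS7 (ENSG00000115286, chr19:1383527-1395589) had 67.6 and 60.8 normalized counts in WT and 9.86 and 27.2 with eGFP (log2 change -1.90, SE 0.529, adjusted p = 0.0151), and NDUFS8 had 114 and 152 against 47.4 and 59.4 (-1.30). COX5B, a nuclear subunit of complex IV, had 1725 and 1975 in WT and 847 and 967 with eGFP (-1.03, adjusted p = 1.19e-05). The eGFP libraries lay below both WT libraries for each. The COX5B call held without any 1 library. That of NDUFS7 was lost without either WT library (-1.82 and -1.97) or the first eGFP library (-1.21), and that of NDUFS8 without the second WT (-1.09) or first eGFP library (-1.14). ATP5F1D, the delta subunit of the ATP synthase shaft (-1.09), NDUFC2 (-1.01), NDUFB10 (-1.27), NDUFA13 (-1.86) and ATP5IF1 (-1.07) also passed a 2-fold change, though the NDUFB10 call was lost without any 1 library (-1.44 to -1.09) and that of NDUFA13 without either WT library or the second eGFP library (-2.09 to -1.04). Against this trend, UQCRB, a complex III subunit that helps bind coenzyme Q, rose from 2789 and 2496 to 4206 and 3753 (0.59, adjusted p = 0.00268). NDUFA4, counted here with complex IV, had 278 and 444 in WT and 762 and 816 with eGFP (1.16, adjusted p = 0.0244), with the call lost without the first WT library or either eGFP library (0.83 to 1.21), and ATP5F1E had 112 and 158 against 322 and 403 (1.43, adjusted p = 0.00151).

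**Figure D3:**
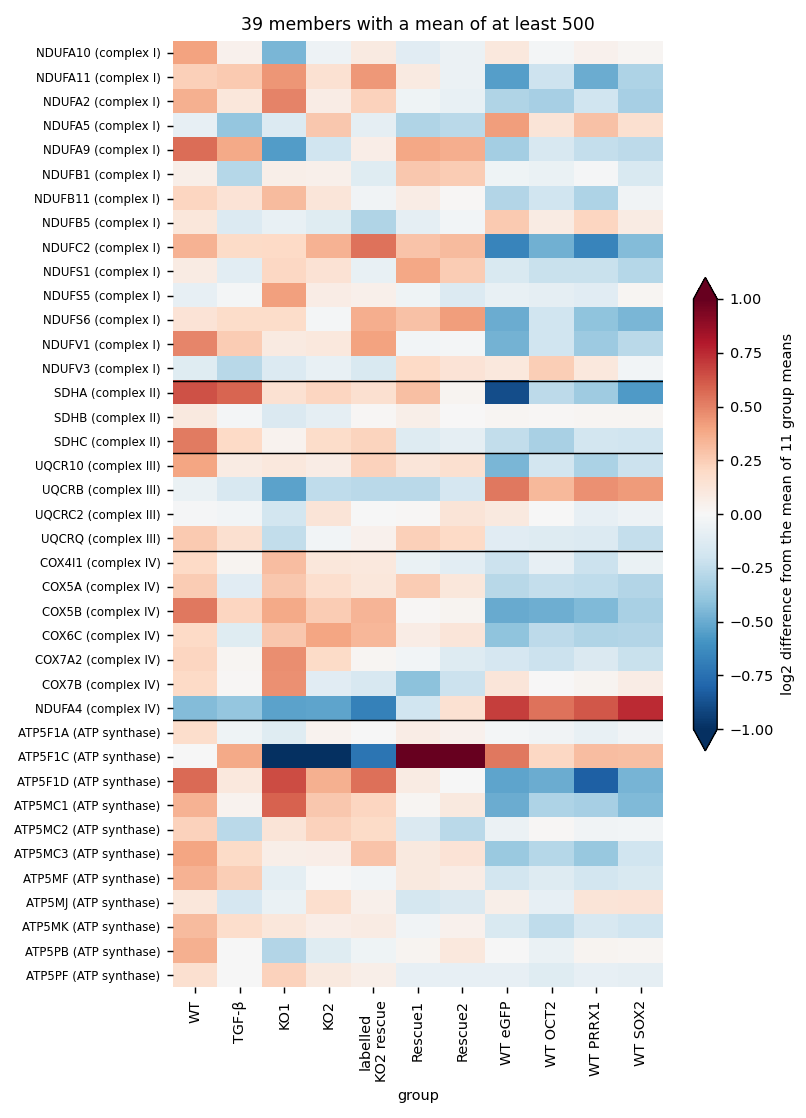
Heat map of 39 members with a mean of at least 500 normalized counts (rows) in the 11 groups (columns); colour gives the log2 difference of a group's mean from the mean of the 11 group means, from -1 to 1. The 4 columns of transduced WT cells are low for most members, with UQCRB high in them.

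Of the 40 members with a mean of at least 500 normalized counts, a subset chosen after the values were seen, 27 were lower and 3 higher in the eGFP cells. Of all genes tested 13.5% were lower and 13.1% higher, but these include genes with few counts. No share was taken over genes with as many counts, so this subset has no matched background. With SOX2, OCT2 or PRRX1 against eGFP no member was called by limma, where 0.0206%, 0.0411% and 0.0480% of all genes were called, and 4, 8 and 2 members had an unadjusted p under 0.05, which does not show that the lines were alike. NDUFS7 had 40.1 and 59.0 normalized counts with OCT2, 32.3 and 44.1 with PRRX1 and 22.2 and 50.2 with SOX2, of which 5 libraries lay above both eGFP libraries. Over the members, the median log2 difference from the mean of all 22 libraries lay between -0.21 and -0.13 in the 8 transduced WT libraries and between -0.02 and 0.26 in the other 14 libraries. The rescue clones, in the same serum as the transduced WT cells, lay above them on this measure with no overlap.

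Tested directly, Rescue1 and Rescue2 against eGFP cells, in the same 10% serum but with other vectors and selection, had 25 members higher and 3 lower, against 14.9% and 14.6% of all genes. A 2-fold change was passed by 5 members, against 13.1%, and the members' median was 0.18 with 0.00 for all genes. The split was 31 and 3 with libraries scaled to the same total, against 18.8% and 11.8% of all genes. It was 21 and 5 with the length and GC trend removed. Higher were 11 of 33 subunits of complex I, 4 of 17 of the ATP synthase, 3 of 12 of complex IV, 2 of 8 of complex III, SDHA, ATP5IF1, 1 SDHAF gene and the 2 read-through genes. NDUFA9 (0.72, adjusted p = 8.63e-05), NDUFS6 (0.85), UQCR10 (0.60), a complex III subunit, COX5B (0.52) and SDHA (1.01, adjusted p = 0.0129) were among them. The SDHA call was lost without either eGFP library (0.96 and 1.06). NDUFB6 (1.69), NDUFS7 (1.55) and NDUFS8, subunits of complex I, also passed a 2-fold change, and their calls were lost without the first eGFP library (0.94, 0.86 and 1.10). The read-through gene NDUFC2-KCTD14 had the largest change, 2.98, and this was 0.56 without the first eGFP library. NDUFS6 had 754 and 792 normalized counts in Rescue1, 816 and 865 in Rescue2 and 455 and 438 with eGFP. Lower were UQCRB (-0.74), NDUFA5 (-0.70) and COX7B (-0.44), a complex IV subunit whose call was lost without the first eGFP library (-0.42). These eGFP libraries are also in the comparison with WT, so the values are set side by side and not counted as separate evidence. Without the first eGFP library 14 members were called in place of 28.

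**Figure D4:**
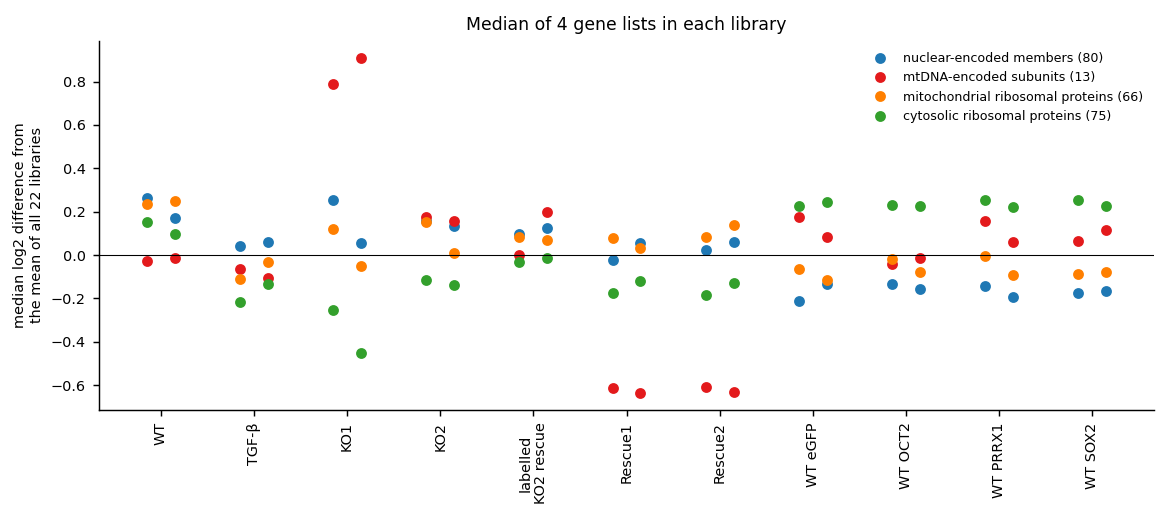
Median log2 difference from the mean of the 22 libraries (y axis) for 4 gene lists in each library (dots) of the 11 groups (x axis): the members (80 genes), subunits encoded by mitochondrial DNA (13), mitochondrial ribosomal proteins (66) and cytosolic ribosomal proteins (75). The mitochondrially encoded list is at 0.79 and 0.91 in KO1 and between -0.64 and -0.61 in the rescue clones, while the members stay between -0.21 and 0.26.

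The 13 subunits that mitochondrial DNA encodes are set beside the nuclear ones, with no test of the difference between the lists. In KO1, 11 were higher and 1 lower (median 1.07), in KO2 7 and 0 (0.24), in the rescue clones against KO2 1 and 12 (-0.83), and in the rescue clones against eGFP 1 and 12 (-0.71). With libraries scaled to the same total the KO1 counts were 8 and 4 (median 0.66) and the KO2 counts 3 and 4 (median 0.01). The rise in KO2 was thus not kept at that scaling. The counts of the rescue clones were 1 and 11 against KO2, and 1 and 12 against eGFP. MT-CYB, the cytochrome b of complex III, had group means of 51410 normalized counts in WT, 148100 in KO1, 68550 in KO2, 38140 in Rescue1 and 37850 in Rescue2. MT-ND6, the complex I subunit read from the other strand of the mitochondrial genome, went the opposite way, with means of 828 in WT, 530 in KO1, 1096 in Rescue1 and 1295 in Rescue2 (log2 change -0.62 in KO1, adjusted p = 0.0156, and 1.01 for rescue against KO2). In the eGFP cells 5 of the 13 were higher and 1 lower than in WT (0.21), while 33 nuclear members were lower. Mitochondrially encoded mRNA took 6.06 to 10.6% of the counts of a library.

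Related nuclear genes were counted on the same scale, to be read against the shares of all genes given above for each comparison (9.22% lower after TGF-β, 20.8% in KO1, 13.7% in KO2 and 13.5% with eGFP). Of 66 mitochondrial ribosomal proteins, 13 were lower and 0 higher after TGF-β (median -0.29), 19 and 4 in KO1 (-0.17), 8 and 2 in KO2 (-0.13, and 6 each way with the length and GC trend removed), and 16 and 3 with eGFP against WT (-0.32). At the same total 28, 33 and 20 were lower after TGF-β, in KO1 and in KO2. Of 75 cytosolic ribosomal proteins, 35 were lower and 0 higher after TGF-β (-0.34). In KO1 50 were lower and 1 higher (-0.52), and in KO2 31 and 2 (-0.27), but with eGFP 24 were higher and 11 lower (0.17). In the eGFP cells this list and the members thus had medians of opposite sign under each scaling tried. Of 48 assembly factors, 9 were lower and 4 higher in KO1 (-0.24) and 8 and 0 with eGFP (-0.30), which is 18.8% and 16.7% of the list lower. At the same total 18 were lower and 0 higher in KO1. COX20, which guides COX2 into complex IV, had means of 330 normalized counts in WT, 139 in KO1, 87.0 in KO2, 298 in Rescue1 and 359 in Rescue2 (log2 change -1.25 in KO1, -2.09 in KO2 and 2.06 for rescue against KO2).

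Among 16 genes of coenzyme Q synthesis and electron carriers, 6 were lower and 1 higher in KO1 (-0.41) and 3 and 0 in KO2. The shares of all genes were 20.8% and 19.0% in KO1 and 13.7% and 15.3% in KO2. COQ2, which attaches the side chain of coenzyme Q, had means of 740 normalized counts in WT, 220 after TGF-β, 176 in KO1, 317 in KO2, 515 in Rescue1 and 477 in Rescue2. TGF-β changed it by -1.74 on the log2 scale (adjusted p = 6.97e-06). KO1 and KO2 differed from WT by -2.11 and -1.22 (adjusted p = 1.65e-07 and 7.22e-05), and the rescue clones from KO2 by 0.64. CYCS, cytochrome c, was lower in KO1 (-0.66, adjusted p = 0.00201) and KO2 (-0.44). COQ7 (-2.69, adjusted p = 0.00137) and COQ8B (-1.71), also of coenzyme Q synthesis, were lower in KO1.

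Of 19 regulators of mitochondrial biogenesis, 2 were lower after TGF-β, namely the orphan nuclear receptor ESRRG (-2.79, adjusted p = 0.00413) and TFB1M (-1.52, adjusted p = 0.0190), which modifies mitochondrial ribosomal RNA, 1 was lower in KO1, and none was called in KO2 or with eGFP. PPARGC1A, a coactivator of these genes, had means of 22.1 in WT, 0.91 after TGF-β, 7.61 in KO1 and 17.8 in KO2 (TGF-β adjusted p = 0.0514). NRF1, whose core was counted in the promoters, had group means of 144 to 212, and TFAM, which packages mitochondrial DNA, had 173 in WT, 105 in KO1, 100 in KO2 and 283 with eGFP. ESRRA, a nuclear receptor that acts with PPARGC1A, had group means of 50.9 to 216, and none of these 4 was called after TGF-β or in either clone. Of 11 hypoxia response genes, 2 were higher and 2 lower after TGF-β, 5 and 2 in KO1, 2 and 3 in KO2, and 2 and 5 with eGFP. Of all genes 8.50%, 19.0%, 15.3% and 13.1% were higher in these comparisons, in that order. Lower were 9.22%, 20.8%, 13.7% and 13.5%, and the same shares apply to the regulators. ADM, which encodes a vasodilator peptide, rose by 4.94 in KO1 and 2.37 in KO2 on the log2 scale, and NDRG1 fell by 1.75 after TGF-β and rose by 1.61 in KO1.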

How the data were processed

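The authors made poly(A) RNA libraries with a stranded kit, quantified reads with Salmon against GRCh38 transcripts of Ensembl release 94, and ran DESeq2 (1.9.0 and 1.26.0 in the submitters' processing notes). They deposited log2 values of 36859 genes in 22 libraries. The transformation is not named in the sources used here. The lowest value of every library was 11.32. Read as a variance-stabilised count of 0, it allowed an exact inverse, which gave the normalized counts used here. The number of reads per library is not given, so no counting interval is given.

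Symbols, transcripts and positions came from GENCODE 44, which holds 33878 of the genes. limma 3.58.1 in R 4.3.3, with a variance trend, tested log2(normalized count + 1) for the 14585 genes that reached 10 normalized counts in 2 libraries or more. The change of a gene with few counts is understated on this scale. The 22 libraries shared 1 fit, which had a term for each group and nothing else, and a gene was called at a Benjamini-Hochberg adjusted p under 0.05. Other tools were Python 3.11.15, numpy 2.4.6, pandas 2.3.3 and matplotlib 3.10.9. The plan took the values for normalized counts, so the test was kept after conversion. Alternatives were scaling to the same total, removal of a trend on length and GC, a fit of only the groups compared, no filter on low counts, another pseudocount, leaving out each library, and a block on replicate number. Promoter windows came from RefSeq.

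The members and lists were chosen with earlier results of these data known. Named were, in each comparison, the 3 most raised and the 3 most lowered of the called members whose groups did not overlap, every member past a 2-fold change, the members with the 3 widest and 3 narrowest ranges, every member under the count minimum, the paired isoforms of complex IV with NDUFA4 and NDUFA4L2, NDUFS4, a set of core subunits with ATP5IF1, and, of each related list, up to 4 genes past a 2-fold change, with PPARGC1A, TFAM, NRF1 and ESRRA. Other named members, such as NDUFA10, SDHC and ATP5MF, were chosen after their values were seen. For 1 core subunit the values are not reported here, although it is in the counts.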

Additional observations from a re-analysis of the deposited data

Results flagged for a closer look

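The KO clones differed from each other for 9 members by limma's test of the difference between KO1 and KO2, with Benjamini-Hochberg adjustment over all genes, where 6.44% of all genes were higher and 9.56% lower in KO1. Lower in KO1 than in KO2, as log2 differences, were NDUFA5 (-0.41), NDUFA10 (-0.41), NDUFA9 (-0.37) and UQCRC2 (-0.31). Higher in KO1 were NDUFS5 (0.34), NDUFA2 (0.43), SDHAF2 (0.47), COX7B (0.57) and NDUFA7 (1.02). None of the 9 was called when only the libraries of both clones entered the fit, and the NDUFA7 difference rests on 1 KO2 library with 177 normalized counts beside 508 in its duplicate.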

How the results depend on the processing

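The number of members called, of 80, depended most on the spread used and on the scaling. With only the groups compared in the fit, it went from 10 to 0 for TGF-β against WT, 19 to 4 for KO1 and 11 to 2 for KO2 against WT, 9 to 0 for KO1 against KO2, 20 to 10 for KO against TGF-β, 37 to 9 for eGFP against WT and 2 to 0 for the labelled KO2 rescue. With libraries scaled to the same total it was 32 for TGF-β, 36 for KO1, 26 for KO2 and 15 between the clones. With the length and GC trend removed it was 6 for TGF-β and 23 for eGFP against WT. At an unadjusted p under 0.05 it was 21 for TGF-β, 20 for KO2, 19 between the clones, 8 for the labelled KO2 rescue and 4, 8 and 2 for SOX2, OCT2 and PRRX1, where 0 were called. Chosen after seeing the data, KO1 or the mean of both clones in place of KO2 gave 28 and 30 for the rescue clones in place of 17, and members with a mean of at least 500 gave 1 for the labelled KO2 rescue. The cause of these moves was not tested beyond what each setting does by construction.

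Leaving out 1 library at a time gave 4 to 8 for TGF-β, 9 to 23 for KO1, 4 to 10 for KO2, 2 to 14 between the clones, 11 to 20 for KO against TGF-β, 10 to 16 for rescue against KO2, 14 to 27 for rescue against eGFP, 0 to 1 for the labelled KO2 rescue, 24 to 33 for eGFP against WT and 0 to 0 for the other transduced lines. The lone library left in a group is taken to vary like the other groups. The counts moved by over 1.5 times without WT replicate 2 (6) or TGF-β replicate 1 (4) for TGF-β, without WT replicate 1 (12) or KO1 replicate 2 (9) for KO1, and without KO2 replicate 2 for KO2 (4) and rescue against KO2 (10). They did so too between the clones without KO1 replicate 1 (14), KO1 replicate 2 (4), KO2 replicate 1 (4) or KO2 replicate 2 (2), for KO against TGF-β without TGF-β replicate 1 (11) or 2 (12), and without eGFP replicate 1 for eGFP against WT (24) and rescue against eGFP (14).

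Replicate numbers did not pair the libraries, since over 55 pairs of groups the correlation of same-numbered deviations ran from -0.143 to 0.0955, with 0 above 0.1. With the replicate number as a block, 10 members were called for TGF-β, 17 for KO1, 11 for KO2, 8 between the clones, 19 for KO against TGF-β, 16 for rescue against KO2, 28 for rescue against eGFP, 2 for the labelled KO2 rescue, 35 for eGFP against WT and 0 for the other transduced lines. Of 54 changes of named members, 0 reversed under any setting tried, 89 of 256 values with a library left out lost their call, and so did 84 of 574 values under other settings.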
